A study of Sus scrofa with 6 samples.

Results

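This account covers the genes of serotonin, adrenomedullin, endothelin and angiotensin signaling in porcine aortic valve leaflets. The 9 genes of interest were the serotonin receptor HTR2B, the peptide receptor CALCRL and its ligand adrenomedullin (ADM), the ligand endothelin 1 (EDN1) with its receptors EDNRA and EDNRB, the angiotensin receptors AGTR1 and AGTR2, and the angiotensin-converting enzyme ACE. Their probe sets were taken by name, from the array annotation or from the symbols in the study's own list of differing probe sets. Of these genes 8 had a probe set and AGTR2 had none, which left 10 of the 24123 probe sets on the array, with 2 each for HTR2B and EDNRB. All 10 were named by the annotation. The study's list, which was made from these same arrays, also holds 1 HTR2B probe set and the CALCRL probe set, so the directions of those probe sets were known when the genes were chosen and are not independent evidence.

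Leaflets came from pigs of mixed breed, 3 females and 3 castrated males about 5 months old, and 1 Affymetrix Porcine Genome Array was hybridized per animal. The surface endothelium of every leaflet had been scraped away with a blade before RNA isolation. The leaflets were bulk tissue, and the labels do not say whether any of the animals were related. Only the males were castrated, so sex and castration cannot be told apart. Expression values are on the log2 scale, made by the authors with robust multi-array average (RMA), so a difference of 1 is 2-fold. The number of arrays limits the precision, and an exact permutation test of 3 against 3 cannot go below p = 0.1.

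Blood vessels and valves respond to a small set of secreted mediators that act through G protein-coupled receptors. Serotonin acts on HTR2B, which couples to phospholipase C and is known in the heart valve as the receptor behind drug-induced leaflet thickening. CALCRL is a receptor that needs a receptor activity-modifying protein (RAMP) at the cell surface, and the partner sets the ligand, since CALCRL binds calcitonin gene-related peptide when it sits with RAMP1 and adrenomedullin when it sits with RAMP2 or RAMP3. Endothelin 1 is a peptide of endothelial cells that contracts smooth muscle through EDNRA, while EDNRB also clears it. ACE, an enzyme of the endothelial surface, makes angiotensin II, whose main effects run through AGTR1.

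Array medians lay between 7.33 and 7.38. Correlations over all probe sets other than controls lay at 0.987 to 0.993 between arrays of like sex and at 0.972 to 0.987 between arrays of different sex. The cause of that gap was not tested. Y-linked DDX3Y, EIF1AY and UTY read 3.04 to 4.42 in females and at least 6.48 in males, which fits the labelled sexes. The 25th percentile of all values was 5.53. Markers of valve interstitial cells and fibroblasts were all measured above it (14 of 14 genes), 6 of 10 cardiomyocyte markers were under it, and 19 of 20 endothelial markers were above it in spite of the scraping, with KDR as the exception at a mean of 4.45. Probe sets that only the study's list names for a marker were not counted, and the study reports KDR as higher in males. Levels are otherwise not compared between probe sets. Each probe set has its own affinity, which also limits the comparison with the percentile.

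The values of HTR2B and CALCRL were higher in every male leaflet than in any female leaflet, while those of ADM and of the endothelin and angiotensin genes overlapped between the sexes. By mean, 5 of the 10 probe sets were higher and 5 lower in males (49.1% of all probe sets were higher), with a median difference of 0.003 against -0.005 over all probe sets tested. The sexes did not overlap at 3 of the 10, both HTR2B probe sets and CALCRL, all higher in males. Over all 23999 probe sets other than controls, the sexes did not overlap at 22.4%, and they did not overlap with males higher at 11.1%. With limma over these probe sets, 0 of the 10 passed both an adjusted p of 0.05 and 2-fold, where 0.304% of all passed, and 3 of the 10 had an unadjusted p under 0.05, all higher in males, where 16.9% of all had such a p and 8.08% had it with males higher. The adjusted p values of the 10 ran from 0.0641 to 0.991.

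The authors tested only probe sets kept by a filter on the coefficient of variation (CV), the SD of a probe set's values divided by their mean. The methods give its aim as removing probe sets whose replicates were too unlike, and state neither a cutoff nor over which arrays the CV was taken. The filter used here runs the other way from that stated aim. It kept the 10% of all probe sets with the most variation over the 6 arrays. Limma called 183 of the 2412 probe sets in this filter. The study reports as many differing genes at the same threshold. How far the full sets of calls match was not tested, so single calls may not be those of the authors' filter. The CV over the 6 arrays includes the difference between the sexes. A probe set can thus enter the filter through the difference then tested. Calls and p values on the filtered set carry that selection and are no separate support. The filter retained 6 of the 10, namely both HTR2B probe sets, CALCRL, ADM, EDN1 and AGTR1. In limma on the filtered set, 2 of these 6 were called, HTR2B at 1 of its probe sets and CALCRL, where 7.59% of the 2412 probe sets in the filter were called and 4.6% were called with males higher. These are the 2 in the study's list, so nothing further is read from that share. The other 4 had adjusted p values from 0.167 to 0.661 in the same limma test. When probe sets were instead left out for varying within a sex (the 10% of largest CV), an alternative chosen after seeing the data, CALCRL and the HTR2B probe set of the study's list were among those left out, and 0 of the 4 probe sets still tested were called by limma.

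**Figure D1:**
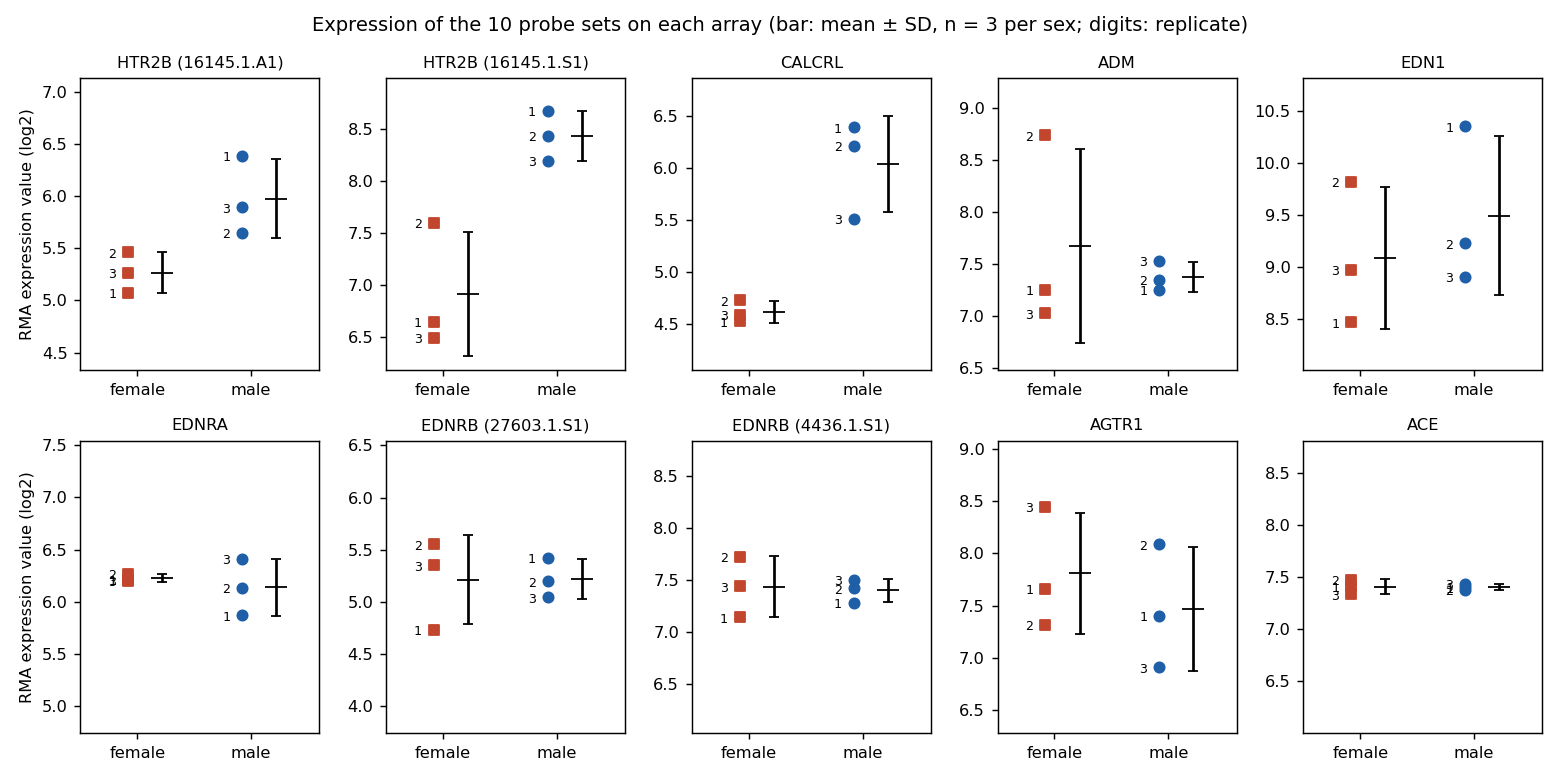
RMA expression value (log2) of the 10 probe sets on each female (squares) and male (circles) array, with digits for the replicate number and bars for the mean and SD of 3 arrays; every panel spans the same range of log2 units, and the HTR2B probe set in the study's list is the one ending in S1. Males and females are apart at both HTR2B probe sets and at CALCRL and overlap at the other 7.

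HTR2B was measured by 2 probe sets, and the one in the study's list gave the wider separation. Its expression values were 8.67, 8.43 and 8.20 in male replicates 1, 2 and 3 and 6.65, 7.60 and 6.50 in female replicates 1, 2 and 3. Female replicate 2 was the closest to the males, 0.60 below the lowest of them and 0.95 above the next female. The male mean was 8.43 ± 0.24 (SD, n = 3) and the female mean 6.92 ± 0.60, a 2.87-fold higher level in males (log2 difference 1.52, standard error 0.29, 95% confidence interval 0.83 to 2.21, adjusted p = 0.0987 from limma over all probe sets). On the filtered set limma gave an adjusted p of 0.0382. That call was kept when male replicate 3 or female replicate 2 was left out and lost when any other single array was left out (limma adjusted p up to 0.118 with the filter). Among the fits over all probe sets with 1 array left out, HTR2B passed only without female replicate 2, where the log2 difference grew to 1.86 (adjusted p = 0.0264 from limma).

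The other HTR2B probe set carries the same sequence accession in the annotation and gave a smaller difference. It read 6.39, 5.65 and 5.89 in male replicates 1, 2 and 3 and 5.07, 5.46 and 5.27 in females. The lowest male lay only 0.19 above the highest female, and all 3 females lay under the 25th percentile of all values. Its log2 difference was 0.71 (standard error 0.20, 95% confidence interval 0.23 to 1.19), with an adjusted p of 0.178 from limma over all probe sets and 0.167 with the CV filter. Both probe sets thus pointed the same way with different sizes, and neither was called when all probe sets were tested. No probe sequences were at hand, so the strand each probe set reads and their overlap could not be checked.

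CALCRL was low in every female leaflet and higher in each male leaflet. Its values were 6.39, 6.21 and 5.51 in male replicates 1, 2 and 3 and 4.53, 4.73 and 4.59 in female replicates 1, 2 and 3. The females lay within 0.20 of each other. Male replicate 3 was the lowest male and lay 0.78 above the highest female. All 3 females and male replicate 3 were under the 25th percentile of all values, where the signal is low. The male mean of 6.04 ± 0.46 (SD, n = 3) was 2.68-fold above the female mean of 4.61 ± 0.10 (log2 difference 1.42, standard error 0.22, 95% confidence interval 0.90 to 1.95, adjusted p = 0.0641 from limma over all probe sets and 0.0339 with the CV filter). CALCRL passed over all probe sets without male replicate 3 and in no other fit with 1 array left out, with a log2 difference of 1.69 (adjusted p = 0.00833 from limma). On the filtered set it stayed called without male replicate 3 or female replicate 2 and lost the call without any of the other 4 arrays (limma adjusted p up to 0.125). The study also reports CALCRL as higher in males by quantitative PCR on the same tissue samples. It ran that PCR on samples from additional animals of each sex too. Those PCR values were not examined here.

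**Figure D2:**
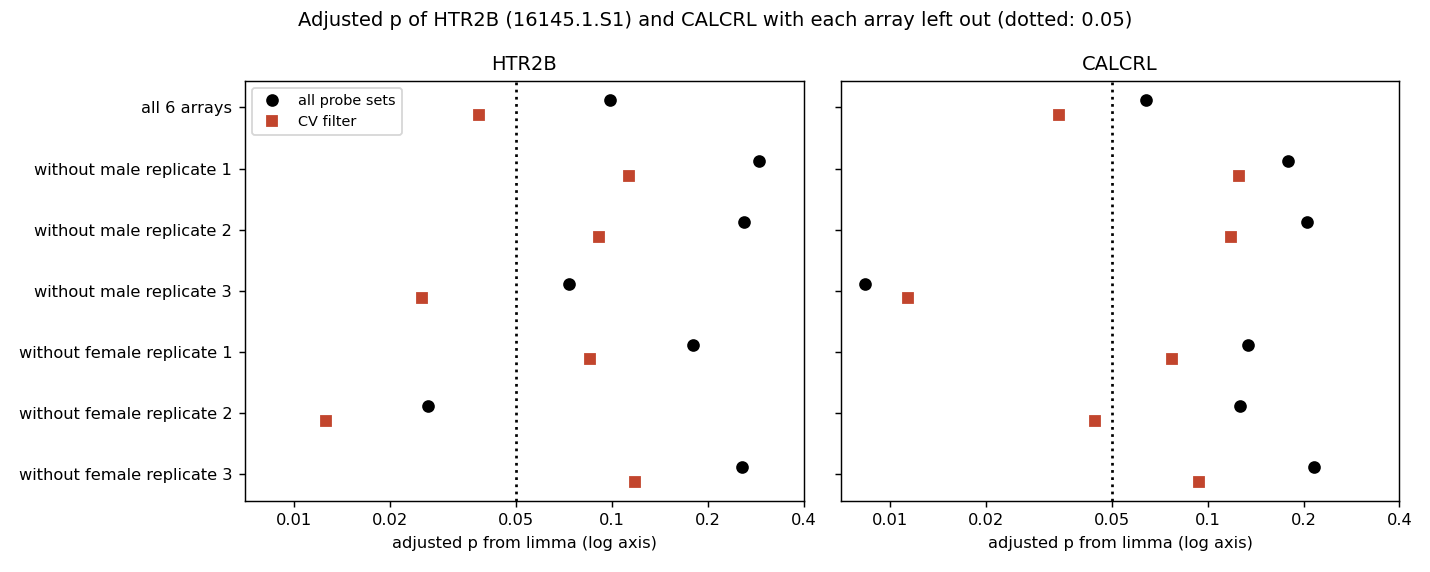
Limma's adjusted p (log axis) for the HTR2B probe set in the study's list and for CALCRL, with all 6 arrays and with each array left out in turn, over all probe sets (circles) and with the CV filter (squares); the dotted line is 0.05. With the CV filter each gene lies left of the line with all arrays and without male replicate 3 or female replicate 2, and right of it in the other 4 fits.

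The partners that give CALCRL its ligand did not follow it as a group. RAMP2, the adrenomedullin partner, read 13.22, 12.86 and 12.57 in male replicates 1, 2 and 3 and 12.12, 12.39 and 12.08 in females. Males and females did not overlap, and the log2 difference was 0.69 (standard error 0.18, adjusted p = 0.162 from limma over all probe sets), so RAMP2 did not pass. The calcitonin gene-related peptide partner RAMP1 differed by 0.09 (95% confidence interval -0.43 to 0.61), with males and females overlapping. RAMP3, the other adrenomedullin partner, had a mean under the 25th percentile and a difference of -0.06 (95% confidence interval -0.30 to 0.19). PAM, the enzyme that amidates adrenomedullin and other peptides, ran the other way without passing, at 12.38 to 12.72 in males and 12.80 to 13.13 in females (log2 difference -0.43, adjusted p = 0.195 from limma). Of the 8 measured genes of the calcitonin and adrenomedullin family outside the 9 genes of interest, the mean was higher in males for 4 and lower for 4. Limma over all probe sets called 0 of them. The CV filter held 0 of them, so none was tested on the filtered set. At an unadjusted p under 0.05 from limma there were 1 higher (RAMP2) and 1 lower (PAM), where 8.08% of all probe sets were higher and 8.83% lower.

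ADM, the vasodilator peptide that signals through CALCRL with RAMP2 or RAMP3, was set apart by a single female leaflet. Its values were 7.25, 7.35 and 7.53 in male replicates 1, 2 and 3 and 7.25, 8.73 and 7.02 in female replicates 1, 2 and 3. Female replicate 2 was 1.20 above the highest male, and the other 5 arrays lay within 0.51 of each other. Males averaged 7.38 ± 0.14 (SD, n = 3) and females 7.67 ± 0.93, a log2 difference of -0.29 (95% confidence interval -1.27 to 0.68, adjusted p = 0.769 from limma over all probe sets). Without female replicate 2 the sign turned, to 0.24 (adjusted p = 0.382 from limma). The difference was within the spread between replicates, and the interval allows a level in males between 0.414 and 1.61 times that in females.

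EDN1, the endothelin ligand, varied within each sex by more than it differed between them. It read 10.35, 9.22 and 8.90 in male replicates 1, 2 and 3 and 8.47, 9.81 and 8.97 in female replicates 1, 2 and 3. The highest values were those of male replicate 1 and female replicate 2, and male replicate 3 lay below 2 of the females. Males averaged 9.49 ± 0.76 (SD, n = 3) and females 9.08 ± 0.68 (log2 difference 0.41, 95% confidence interval -0.65 to 1.46, adjusted p = 0.695 from limma over all probe sets). Leaving out male replicate 1 brought the log2 difference to -0.02.

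The endothelin receptors differed between the sexes by less than the spread between replicates. EDNRA, the contractile receptor, read 5.87, 6.13 and 6.41 in male replicates 1, 2 and 3 and 6.21, 6.27 and 6.20 in females, so that all females fell inside the range of the males. Its log2 difference was -0.09 (standard error 0.15), and the 95% interval corresponds to a level in males of 0.739 to 1.20 times that in females. EDNRB, the receptor that also clears the peptide, was measured by 2 probe sets. At the probe set with the higher mean the values were 7.28, 7.42 and 7.50 in males and 7.14, 7.73 and 7.44 in females. All males lay between the lowest and the highest female, with a log2 difference of -0.03 (standard error 0.16). The other EDNRB probe set read 5.42, 5.19 and 5.04 in males and 4.73, 5.55 and 5.35 in females, with a mean of 5.21, under the 25th percentile, and a log2 difference of 0.01 (standard error 0.22). The adjusted p values of these 3 probe sets ran from 0.807 to 0.989 in limma over all probe sets, and a change of 2-fold lies outside each of their 95% intervals.

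Of the genes that process endothelin, 2 had a probe set and neither was called. ECE1, which cuts the inactive precursor of endothelin 1, had a log2 difference of -0.05 at the probe set with the higher mean (95% confidence interval -0.33 to 0.23). Its other probe set had a log2 difference of 0.93, from 5.65 in females to 6.58 in males (adjusted p = 0.130 from limma over all probe sets), so the probe sets of ECE1 disagree. Their strand and overlap could not be checked either. The proprotein convertase PCSK7 had a log2 difference of -0.37 (adjusted p = 0.257 from limma), with no overlap of the sexes.

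AGTR1, the main receptor for angiotensin II, spanned 1.54 log2 units over the 6 arrays without separating the sexes. Its values were 7.40, 8.09 and 6.91 in male replicates 1, 2 and 3 and 7.66, 7.31 and 8.45 in female replicates 1, 2 and 3. Female replicate 3 was the highest and male replicate 3 the lowest, and the remaining arrays of the sexes were interleaved. The log2 difference was -0.34 (standard error 0.37, 95% confidence interval -1.21 to 0.53, adjusted p = 0.687 from limma over all probe sets). Leaving out 1 array gave log2 differences from -0.65 to -0.02, the last without female replicate 3. ACE was the steadiest of the 10 probe sets, at 7.40, 7.38 and 7.44 in males and 7.41, 7.48 and 7.34 in females. All 6 values lay within 0.14, and the log2 difference of -0.003 had a 95% interval of -0.22 to 0.22, or 0.856 to 1.16 times the female level.

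Other genes of the renin-angiotensin system were not called over all probe sets (0 of 7 measured), with 5 higher and 2 lower by mean in males. The CV filter held only 2 of the 7, and neither was called there. At an unadjusted p under 0.05 from limma there were 2 higher and 1 lower, where 8.08% of all probe sets were higher and 8.83% lower. AGT, the precursor from which angiotensin is cut, read 6.40, 7.08 and 5.90 in male replicates 1, 2 and 3 and 5.57, 5.68 and 5.37 in females. Every male was above every female, by 0.22 at the closest, and the log2 difference was 0.92 (standard error 0.28, adjusted p = 0.192 from limma over all probe sets and 0.121 with the CV filter). The aminopeptidase ANPEP had a log2 difference of -0.64 (adjusted p = 0.251 from limma) with overlapping sexes.

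Among the remaining serotonin receptors, 6 of 13 listed genes were measured, of which HTR1F, HTR4 and HTR7 had means under the 25th percentile. HTR2A, the receptor closest in kind to HTR2B and likewise coupled to phospholipase C, ran opposite to HTR2B by mean. It read 6.21, 6.64 and 7.73 in male replicates 1, 2 and 3 and 7.89, 7.66 and 7.98 in female replicates 1, 2 and 3. Male replicate 3 lay among the females and the other males lay at least 1 log2 unit below all of them (log2 difference -0.98, standard error 0.36, adjusted p = 0.244 from limma over all probe sets and 0.131 with the CV filter). HTR1D, a receptor that lowers cyclic AMP, had a log2 difference of 0.39 (adjusted p = 0.291 from limma). Genes that make, take up or break down serotonin did not separate the sexes at any of the 5 measured. The serotonin transporter SLC6A4 had a log2 difference of 0.08 (95% confidence interval -0.21 to 0.38). The monoamine oxidase MAOA had a log2 difference of -0.28 (adjusted p = 0.410 from limma) and the decarboxylase DDC one of -0.32 (adjusted p = 0.554 from limma).

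**Figure D3:**
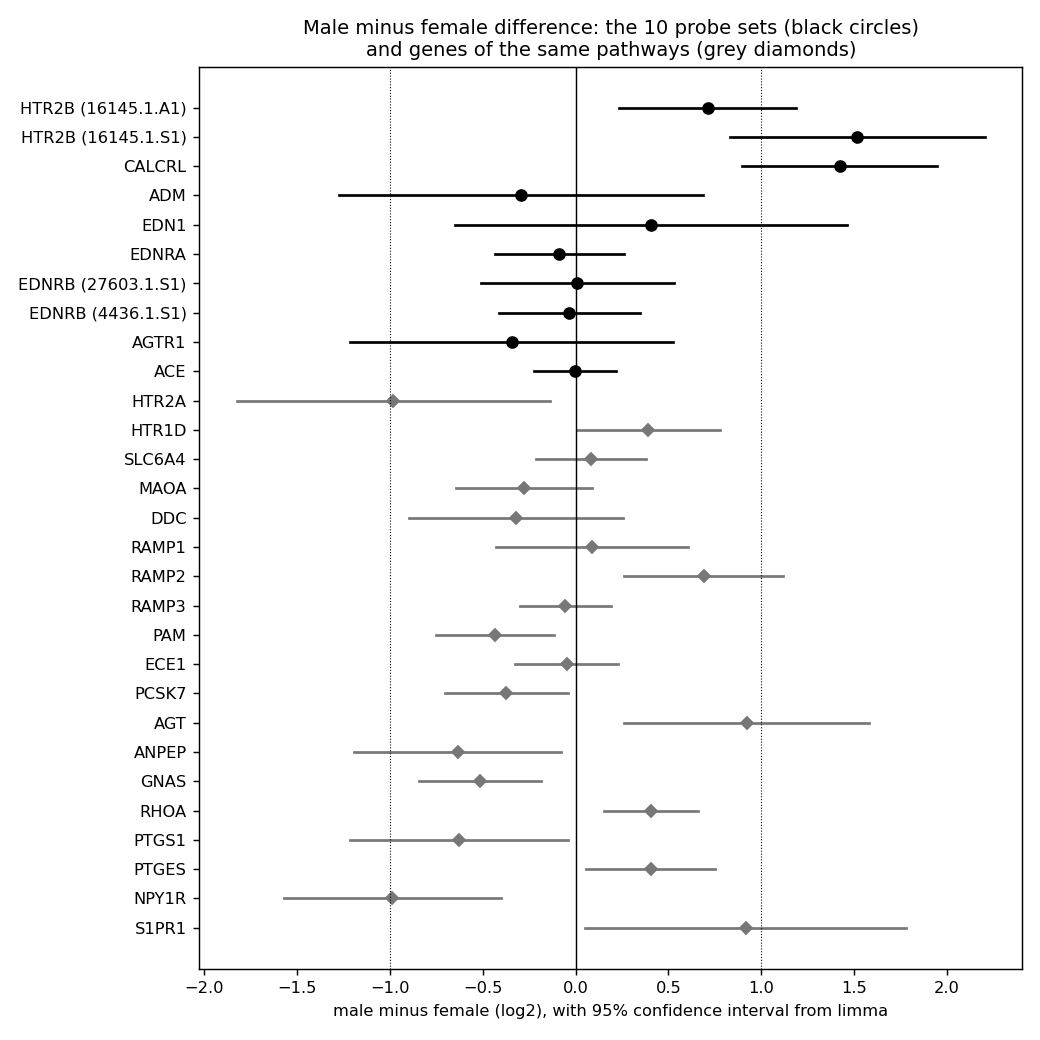
Male minus female difference (log2) with its 95% confidence interval from limma over all probe sets, for the 10 probe sets (black circles) and for 19 genes of the same pathways (grey diamonds); dotted lines mark 2-fold. HTR2B and CALCRL lie to the right of 0, the endothelin receptors, AGTR1 and ACE have intervals that include 0, and HTR2A and NPY1R lie to the left.

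Signaling genes shared by these receptors were not called over all probe sets, nor on the filtered set, where only 4 of the 21 measured were tested. Of 21 measured genes of G proteins and calcium signaling, the mean was higher in males for 14 and lower for 7. The small GTPase RHOA, which acts downstream of contractile receptors, had a log2 difference of 0.40 (adjusted p = 0.165 from limma over all probe sets) and the G protein subunit gene GNAS one of -0.52 (adjusted p = 0.167 from limma, mean under the 25th percentile). RGS5, which speeds the shutting off of G proteins and is also a marker of pericytes, had the largest difference of the measured pathway genes and is named after its values were seen. It read 9.18, 10.20 and 9.13 in male replicates 1, 2 and 3 and 6.86, 8.76 and 5.21 in females, with no overlap and a wide spread among females (log2 difference 2.56, standard error 0.82, adjusted p = 0.204 from limma over all probe sets and 0.0517 with the CV filter). The study counts RGS5 among its differing genes, while the probe set named for it here was called in neither fit. For nitric oxide and prostanoids, 7 of 10 were higher by mean, with 0.40 for the prostaglandin synthase PTGES and -0.63 for the cyclooxygenase PTGS1. Of 14 other vasoactive receptors and peptides, 10 were lower by mean. The neuropeptide Y receptor NPY1R read 5.61, 5.46 and 4.88 in males and 6.42, 6.61 and 5.89 in females, with no overlap (log2 difference -0.99, standard error 0.25, adjusted p = 0.151 from limma over all probe sets). The sphingosine phosphate receptor S1PR1 had a log2 difference of 0.92 with overlap. Over the 8 pathway lists together, 73 of 161 listed genes were measured, and the mean was higher in males at 40 and lower at 33. The median difference was 0.02 and 0 were called over all probe sets. The CV filter held only 13 of the 73, and 0 of those were called there. At an unadjusted p under 0.05 from limma there were 19 of the 73, with 10 higher and 9 lower in males, where 8.08% of all probe sets were higher and 8.83% lower at such a p.

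Endothelial markers were, like HTR2B and CALCRL, mostly higher by mean in males. Of 20 measured markers 16 were higher and 4 lower in males by mean, the median log2 difference was 0.79, and 0 were called over all probe sets. In the same limma fit 9 had an unadjusted p under 0.05, all higher in males, where 8.08% of all probe sets did so. The CV filter held 12 of the 20 markers. Of these 3 were called, all higher in males, where 4.6% of the filtered set was called with males higher. They were ESAM, ICAM2 and LMO2, each also in the study's list. The linear values of the 20 markers summed to between 24552 and 48583 in males and between 15913 and 30432 in females, so the summed levels overlapped. Taken singly, 7 of the 20 did not overlap between the sexes, all higher in males as HTR2B and CALCRL were (PECAM1, TIE1, ESAM, EGFL7, ICAM2, FLT1 and LMO2), where 11.1% of all probe sets did so. Averaged on the log2 scale, the markers stood at 10.02, 9.83 and 9.15 in male replicates 1, 2 and 3 and at 8.71, 9.49 and 8.68 in female replicates 1, 2 and 3. In bulk RNA, more cells of a type and more RNA per cell cannot be told apart, and the part of these markers in the HTR2B and CALCRL differences was not tested. Between male replicate 3 and female replicate 2, 8 of the 20 markers were higher on the male array and 12 on the female array. Other marker lists also differed by mean. Both measured mast cell markers (of 6 listed) were higher in males, with linear sums of 352 to 472 in males and 197 to 282 in females. Of 6 measured nerve and Schwann cell markers 2 were higher and 4 lower in males, with linear sums of 4780 to 5880 in males and 5029 to 6160 in females. NPY was the exception among them, with a log2 difference of 4.39, and the other 5 averaged 7.58 to 7.92 in males and 7.89 to 8.04 in females on the log2 scale. Their part in the HTR2B and CALCRL differences was not tested either. Genes of valve interstitial cells and fibroblasts were lower by mean in males at 11 of 14, with linear sums of 121553 to 143071 in males and 140628 to 159572 in females.

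Female replicate 2 had the highest value of the females at 9 of the 10 probe sets, where 32.6% of all probe sets had their highest female value on that array. AGTR1 was the exception, with its lowest female value there. The same array was the highest female at 17 of the 20 endothelial markers. Among males, replicate 1 was the highest at 5 of the 10 probe sets and at 15 of the 20 endothelial markers, against 35.8% of all probe sets. These counts were made after the values had been seen.

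**Figure D4:**
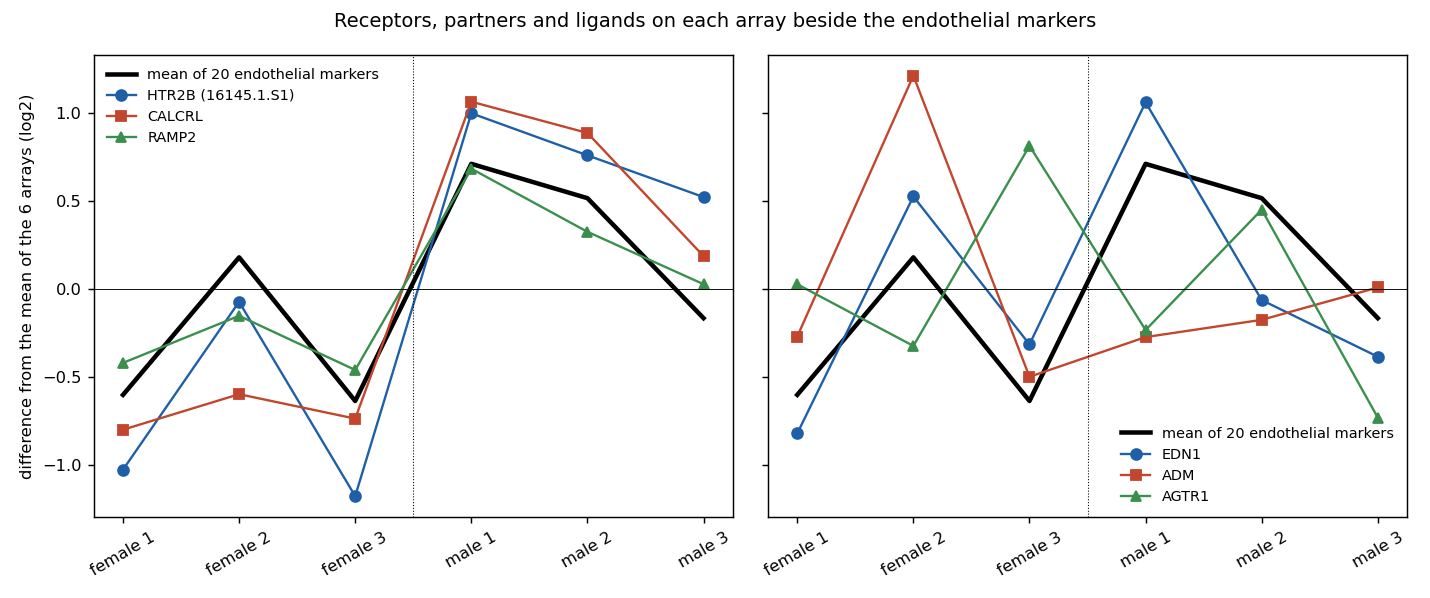
Difference of each array from the mean of the 6 arrays (log2) for HTR2B, CALCRL and RAMP2 (left) and for EDN1, ADM and AGTR1 (right), with the mean of 20 endothelial markers as the heavy line; the dotted line divides females from males. On the left all 3 genes lie higher on each male array than on any female array, while on the right ADM peaks on female replicate 2 and AGTR1 on female replicate 3.

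The genes whose profiles over the 6 arrays were most like those of the 6 probe sets that spanned at least 1 log2 unit were found among 10069 named probe sets by the root mean square difference between values centred on their own mean. For CALCRL they were the hormone STC1 (0.14 log2 units), the C-type natriuretic peptide precursor NPPC (0.15) and the cadherin CDH11 (0.16). For the HTR2B probe set in the study's list they were the interferon-induced modifier ISG15 (0.19), the endothelial and blood cell transcription factor LMO2 (0.20) and PHLDA2 (0.20), and for the other HTR2B probe set RDH11 (0.11), MARCH2 (0.11) and MYLIP (0.12). ADM was closest to RND3, CEBPD, a transcription factor of the acute response, and YBX3 (0.12 to 0.13). The nearest to EDN1 were the frizzled receptor FZD6, LRRC1 and the lipoprotein receptor LRP8 (0.18 to 0.21). AGTR1 was closest to the carbonic anhydrase CA3, GPR1 and the lipoprotein lipase LPL (0.19 to 0.25). The nearest genes differed for each of these 6 probe sets, EDNRA, EDNRB and ACE were not searched, and these values are a description with no test.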

How the data were processed

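The deposited values used here are log2 expression values of 6 arrays, which the authors made from the scanned arrays by RMA in R 2.12.0, both named in the submitters' processing notes (background correction, normalization to a common distribution and summary per probe set). Raw intensities were not used here, so these steps were not repeated. The comparison of the sexes used limma 3.58.1 in R 4.3.3 (functions lmFit then eBayes, as male minus female, without covariates) over the 23999 probe sets other than the 124 controls, and again on those 10% of all probe sets whose CV was highest, since the study's methods filter on the CV. The cutoff is not given in the sources used here. Both the share and the direction (keeping the most variable) follow earlier work on these values, while the methods give the aim as removing probe sets whose replicates were too unlike. The threshold for a call was an adjusted p (Benjamini-Hochberg) below 0.05 with at least 2-fold. All confidence intervals and differences come from the fit over all probe sets unless stated. Probe sets were named by the array annotation, with symbols updated through gene identifiers. Pathway and cell type genes were matched by the annotation alone, so probe sets named only by the study's list were not counted. The probe set with the highest mean stood for the gene, and a list was described by counts and its median.

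The genes of interest, the lists and the alternatives were chosen with earlier results of these data known. Genes named from the lists are those called, the 2 with the smallest p in each pathway list, and RAMP1, RAMP2, RAMP3, ECE1, AGT, HTR2A and SLC6A4. Lists of cardiomyocyte, smooth muscle, pericyte, macrophage, mast cell and nerve markers were measured too. Of these, the nerve list had 1 called gene, the neuropeptide NPY (log2 difference 4.39), and the others had 0. Among the valve interstitial and fibroblast genes MFAP5 was called with the CV filter (log2 difference 1.64). The limma script was tested on simulated data. Alternatives were a filter on low values, median-centred and quantile-normalized arrays, an intensity trend, robust eBayes, array weights, no minimum fold, the replicate number as a block, each array left out, other shares and scales of the CV and, added after seeing the data, leaving out the highest CV within a sex. Array dates are not given in the sources used here, so no batch was tested.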

Additional observations from a re-analysis of the deposited data

How the results depend on the processing

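Over all probe sets, the number of the 10 probe sets called by limma rose from 0 to 2 with array weights (HTR2B and CALCRL) and to 1 with the replicate number as a block (CALCRL, adjusted p = 0.0489 from limma), and lay between 0 and 1 with each array left out. With the CV filter it fell from 2 to 1 when low values were filtered, since the CALCRL probe set was then not tested. It lay between 0 and 2 with each array left out, and was 0 of 4 tested when the probe sets of highest CV within a sex were left out instead (chosen after seeing the data), since CALCRL and HTR2B were then not tested at the called probe sets. The other alternatives gave the same counts. Whether replicate numbers pair the arrays was not settled. Deviations of same-numbered males and females correlated at -0.10, 0.01 and 0.27, the last being the highest of all pairs. Male replicate 1 correlated best with female replicate 2. The block moved the calls from 73 to 204 over all probe sets and from 183 to 302 with the CV filter. Array weights moved them to 280 and 530, and with each array left out they lay between 13 and 285 and between 56 and 391, lowest without a male (replicate 2 over all, replicate 1 with the filter) and highest without male replicate 3. HTR2B and CALCRL kept their direction in all alternatives in which they were tested. Differences whose 95% intervals include 0 changed sign in some alternatives, also those of ADM (-0.29), EDN1 (0.41) and AGTR1 (-0.34). EDNRB turned to -0.00051 with median-centred arrays (the probe set with the lower mean) and to 0.040 with array weights (the other), and AGTR1 to 0.11 with array weights and the CV filter. With each array left out, the log2 difference ranged from -0.62 to 0.24 for ADM, -0.021 to 0.77 for EDN1, -0.23 to 0.046 for EDNRA, -0.23 to 0.18 and -0.18 to 0.11 for the EDNRB probe sets in the same order, -0.039 to 0.031 for ACE and, without a change of sign, -0.65 to -0.023 for AGTR1. The cause of these changes was not tested. The low signal of CALCRL in females and of the first of these EDNRB probe sets limits what their differences can show.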
